A study of Mus musculus with 24 samples.

Results

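Skin of mice that received daily injections of dihydrotestosterone (DHT, a potent androgen) and a topical extract of HLX, the Hanlianxiang herbal formula, was compared between day 15 and day 10. The members were the 8 extract-treated libraries of the 24 in the series, 4 mice killed at each day, taken by their titles, and the 13039 of 18892 genes that reached an FPKM of 1 in 4 or more of the 24 libraries. FPKM is a fragment count corrected for gene length and library size. The model arm (8 mice, the same DHT injections and solvent on the skin) and the control arm (8 mice, saline injections and solvent) were killed at the same days, 4 and 4, and are used only for comparison. All treated and model mice thus shared the DHT, all arms were injected daily, and no arm received the extract without DHT. Each library was poly(A) RNA from skin, titled by arm, day and a replicate number, and is taken here as 1 mouse. Strain, sex, age and skin site are not given in the sources used here. The 2 days are different mice.

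The hair follicle cycles between growth (anagen), regression (catagen) and rest (telogen). In anagen, matrix cells under the influence of the dermal papilla divide and differentiate into the hair shaft, built from hair keratins and the keratin-associated proteins that crosslink them, and into the inner root sheath that moulds the shaft. The interfollicular epidermis renews from a basal layer into cornified cells, the sebaceous gland secretes lipids, and androgens act on the follicle by way of the dermal papilla.

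The basal epidermal keratins that define skin were abundant in all 8 libraries. Krt5 lay between 502 and 685 FPKM and Krt14 between 299 and 633 FPKM. Recovered depth was 37048896 to 41117262 reads per extract-treated library. The correlation of log2(FPKM + 1) across genes between libraries of a day was 0.9859 to 0.9932 at day 10 and 0.9283 to 0.9877 at day 15, where mouse 3 stood furthest from the rest (mean 0.9504). Mouse 3 of day 15 had the lowest summed FPKM of dermal matrix genes (4223, against 9463 to 14066 in the other 7) and of cytokine and chemokine genes (43.2, against 105 to 885). The summed FPKM of 4 Y-linked genes was 22.3, 22.3, 48.2 and 33.4 in mice 1 to 4 of day 15 and 44.1, 41.9, 28.3 and 45.5 at day 10, against 39.2 to 50.6 in the 16 libraries of the other arms. The titles do not say whether a library was 1 animal. Neither that nor the part of this difference in the results was tested. Without mice 1 and 2 of day 15, 65 of the 97 called genes followed by name, some added beside the naming rule, lost their call. The list counts without both mice are given beside most lists. That fit keeps only mice 3 and 4 of day 15, so mouse 3 weighs more in it. In it, the Y-linked difference, the smaller number of mice and the weight of mouse 3 cannot be told apart.

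Between day 10 and day 15, 6 of 16 hair shaft keratins, 19 of 55 keratin-associated proteins and 7 of 10 inner root sheath genes rose, against 2.11% of all genes tested. Of 10 basal epidermis genes 7 fell, as did 7 of 25 epidermal differentiation, 7 of 13 sebaceous gland and 7 of 20 dermal matrix genes, against 7.53% of all genes tested. In limma's test with Benjamini-Hochberg adjustment, 1257 of the 13039 genes (9.64%) were called at an adjusted p under 0.05. Of these, 275 were higher (2.11% of the genes tested) and 982 lower (7.53%) at day 15. By over 1 on the log2 scale, where 1 unit is a factor of 2 in FPKM + 1, 37 were higher and 96 lower. The median log2 difference (day 15 minus day 10, on log2(FPKM + 1)) of all genes tested was -0.06. The split between directions depended on scaling. Median-of-ratios scaling called 570 higher and 668 lower, quantile normalization 369 and 496, and a common total per library 160 and 1772. The number called also depended on single mice. It was 425 without mouse 2 of day 10, 487 without mouse 1 of day 15, 614 and 724 without mice 4 and 1 of day 10, and 2531 without mouse 3 of day 15. Without both mice 1 and 2 of day 15, 236 genes were called (49 higher, 187 lower), and a fit of only the 8 extract-treated libraries called 440. Of the 97 called genes followed by name, 37 lost their call in that fit of only 8 libraries. In bulk skin, fewer cells of a type and less RNA per cell cannot be told apart.

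The 12 largest rises and the 12 largest falls described next were taken among called genes whose days did not overlap, so the lack of overlap is no result. Alox12, an arachidonate lipoxygenase, was at 2.59, 2.1, 2.04 and 2.55 FPKM in mice 1 to 4 of day 10 and at 11.4, 5.65, 11.4 and 5.2 FPKM in those of day 15. Mice 1 and 3 were the higher ones at day 15 (log2 difference 1.43 ± 0.23 SE, adjusted p = 0.0021). Krt72, an inner root sheath keratin, was at 231, 200, 217 and 260 FPKM at day 10 and at 643, 460, 646 and 480 FPKM at day 15 (1.28 ± 0.23, adjusted p = 0.0039). Stra6, a membrane receptor for retinol-binding protein, went from a mean of 9.01 ± 0.932 to 24.3 ± 5.47 FPKM (SD, n = 4; log2 difference 1.32). Gprc5d, an orphan receptor known from hair keratinizing cells, went from 193 to 427 mean FPKM (1.14), and Capn12, a calpain protease, from 16.7 to 40.2 (1.18). Mab21l4 (1.23), Stox1 (1.15), Krtap1-3 (1.21), Krtap7-1 (1.12) and Krtap20-2 (1.16) were also among the 12. Sprr2h, a small proline-rich cornified envelope protein, rose by a log2 difference of 1.31, and Ahsp, the alpha-haemoglobin stabilizing protein of red cells, by 1.24. The calls of Krtap20-2 and Krtap7-1 were lost without mouse 2 of day 10 (adjusted p = 0.068 and 0.053) and without mouse 1 of day 15 (0.055 and 0.05).

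Of the 12 falls Krt6b had the largest. Krt6b, a keratin of wounded and hyperproliferative epidermis, was at 2.46, 19.3, 27.7 and 28.1 FPKM at day 10 and at 1.13, 0.421, 0.0843 and 1.75 FPKM at day 15. Mouse 1 of day 10 was near the day 15 range and the other 3 mice far above it (log2 difference -3.17 ± 0.50, adjusted p = 0.0021). Krtap5-2 fell from 14.1 to 19.1 FPKM in the mice of day 10 to 0.0894, 2.76, 0.641 and 1.42 FPKM at day 15 (-3.07 ± 0.60, adjusted p = 0.0052). Krtap5-3, of the same subfamily, fell by 2.24 on the log2 scale. S100a7l2, of the S100 calcium-binding family, went from 307, 194, 272 and 193 FPKM to 146, 25.1, 4.41 and 54.4 FPKM (-2.86 ± 0.70, adjusted p = 0.016). The other falls were Ifi202b, an interferon-inducible DNA sensor (-2.25), the arylacetamide deacetylase-like genes Aadacl4fm2 (-2.05), Aadacl4 (-1.89) and Aadacl2fm2 (-1.77), the late cornified envelope genes Lce1f (-1.99) and Lce1j (-1.75), the beta-defensin Defb8 (-1.97) and Il1f8, an interleukin-1 family cytokine of epidermis (-1.86). Krt16 fell by 1.95, more than Lce1j, and was not among the 12 because its days overlapped. The call of Lce1f was lost without mouse 2 of day 10 (adjusted p = 0.071) or mouse 1 of day 15 (0.058), that of Defb8 without 6 of the 8 mice in turn, all but mice 1 and 4 of day 15 (0.052 to 0.08), and that of Lce1j without 6, all but mice 2 and 4 of day 15 (0.067 to 0.14). In the fit of only the extract-treated libraries, S100a7l2, Lce1f, Defb8 and Lce1j were not called (adjusted p = 0.11, 0.071, 0.15 and 0.095). The Krtap, Lce and Aadacl genes are multigene families of similar sequence, so their reads may have been split between members by the counting.

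**Figure D1:**
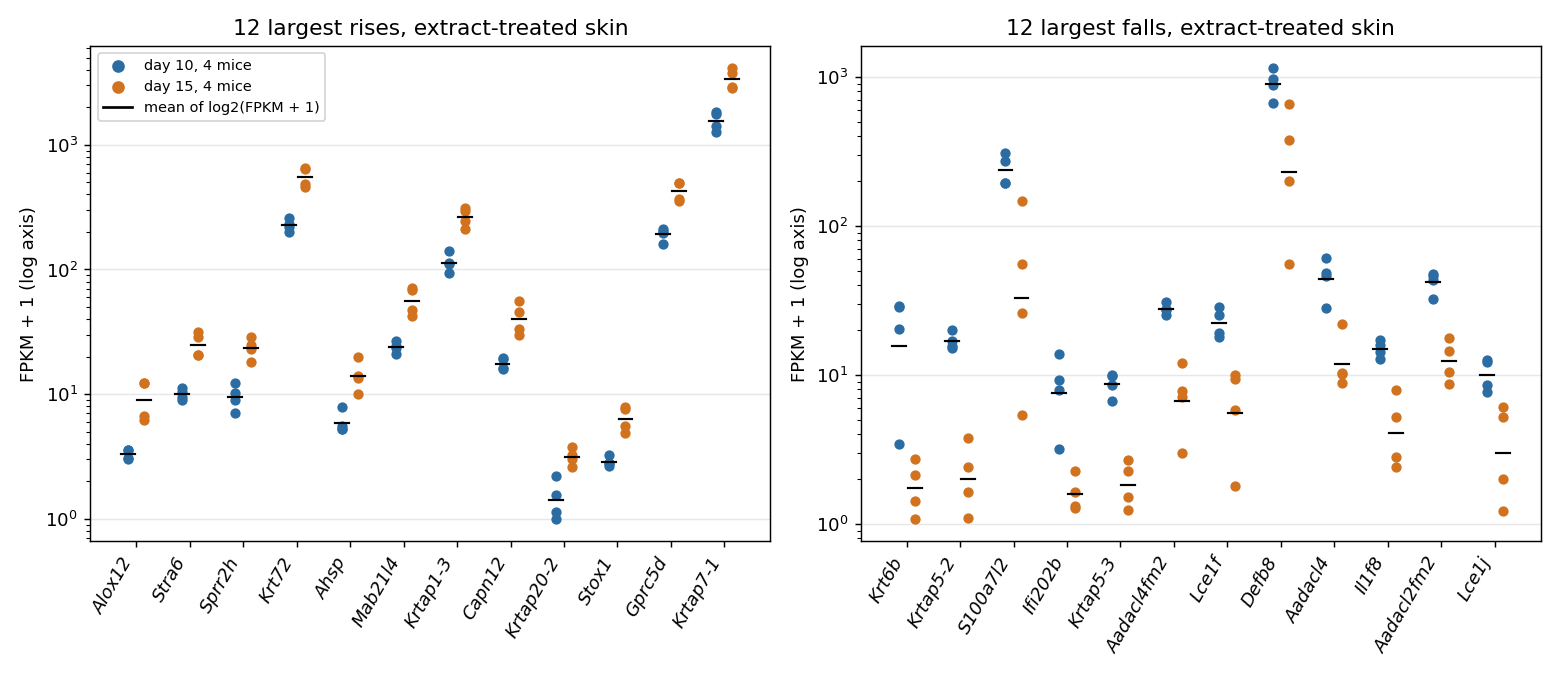
FPKM + 1 on a log axis of the 12 genes with the largest rise (left) and fall (right) in extract-treated skin; each point is 1 mouse, blue day 10 and orange day 15, with bars at the mean of log2(FPKM + 1). The genes were chosen for no overlap between days, and Krt6b of mouse 1 at day 10 lies far below the other 3 mice.

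Of the 16 hair shaft keratins tested, 6 rose and none fell (median log2 difference 0.72, against -0.06 for all genes). Krt34, an acidic hair keratin, was at 368, 294, 372 and 413 FPKM at day 10 and at 799, 653, 742 and 652 FPKM at day 15. All mice of day 15 were above all of day 10 (0.98 ± 0.24, adjusted p = 0.017). Krt86, a basic partner keratin, went from a mean of 357 to 681 FPKM (0.93 ± 0.27, adjusted p = 0.033) and Krt39, a keratin of the hair cuticle and cortex, from 18.8 to 35.6 FPKM (0.89 ± 0.25, adjusted p = 0.029). Krt33a, Krt83 and Krt85 were the other 3 called (0.59 to 0.87). Krt81, Krt83 and Krt86, like Krt33a and Krt33b, are near-identical copies between which the counting may have split reads. Among keratin-associated proteins 19 of 55 rose and 2 fell (median 0.61). The 19 rises lay between 0.75 and 1.21, and Krtap8-1 and Krtap7-1, of the glycine- and tyrosine-rich kind, reached a mean of 4330 and 3410 FPKM at day 15.

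In the inner root sheath list 7 of 10 members rose and none fell (median 0.68). Krt28 was at 350, 316, 319 and 377 FPKM at day 10 and at 776, 552, 851 and 583 FPKM at day 15 (1.0 ± 0.19, adjusted p = 0.005). Krt27 went from 1350 to 2240 mean FPKM (0.74 ± 0.19, adjusted p = 0.018), Krt71 from 2320 to 3630 (0.65) and Tchh, trichohyalin, which hardens the inner root sheath, from 1450 to 2380 (0.71). Krt75, of the companion layer between the root sheaths, rose from 147 to 234 mean FPKM (0.67 ± 0.18, adjusted p = 0.023). These counts changed when single mice were left out. Without mouse 2 of day 10, 0 hair shaft keratins, 2 keratin-associated proteins and 2 inner root sheath genes were called higher, and without mouse 1 of day 15 the numbers were again 0, 2 and 2. Hair shaft keratins numbered 1, 2 and 2 without mice 1, 3 and 4 of day 10 and 3 without mouse 3 of day 15. For the inner root sheath these 4 gave 3, 4, 4 and 4. The medians moved less. Without both mice of day 15 with the lowest Y-linked sums the medians of the 3 lists were 0.65, 0.73 and 0.68, with 0, 1 and 2 members called higher. Single-gene calls lost without mouse 2 of day 10 were those of Krt34, Krt39, Krt86, Krt27 and Krt75 (adjusted p = 0.064 to 0.11), and the same 5 were lost without mouse 1 of day 15 (0.059 to 0.1). Their log2 differences in these fits were 0.64 to 0.92, against 0.67 to 0.98 in the fit of all 24 libraries. Krt39 and Krt86 were also lost without mouse 1 of day 10 (0.052 and 0.06), Krt39 without mouse 3 of day 10 (0.065) and mouse 4 of day 15 (0.055), and Krt86 without mouse 4 of day 10 (0.058).

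**Figure D2:**
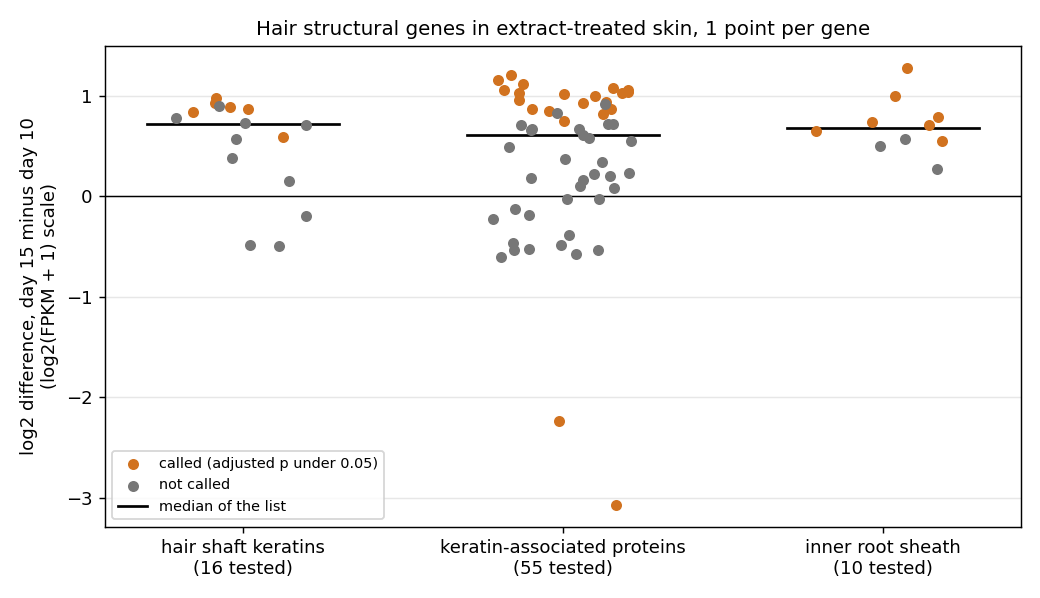
Log2 difference between days (vertical axis, log2(FPKM + 1) scale) of each tested hair shaft keratin, keratin-associated protein and inner root sheath gene in extract-treated skin; orange points were called, grey ones were not, and bars are list medians. The 3 medians are 0.72, 0.61 and 0.68, and the 2 called points far below 0 are Krtap5-2 and Krtap5-3.

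The promoters of 4 of the rising hair genes and of the falling Krtap5-2 are shown because they let the hair genes that moved together be compared by sequence. The sequences are from RefSeq on build GRCm38.p6, each running from 250 bases before to 50 bases after the gene's start, 5′ to 3′ on the gene's strand. Capitals mark TATAAA, the TATA box core, and CTTTGAA, a core bound by the LEF1 and TCF factors of Wnt signalling, on either strand (TTTATA and TTCAAAG are the reverse complements).
Krt34, chr11:100041505-100041804, minus strand: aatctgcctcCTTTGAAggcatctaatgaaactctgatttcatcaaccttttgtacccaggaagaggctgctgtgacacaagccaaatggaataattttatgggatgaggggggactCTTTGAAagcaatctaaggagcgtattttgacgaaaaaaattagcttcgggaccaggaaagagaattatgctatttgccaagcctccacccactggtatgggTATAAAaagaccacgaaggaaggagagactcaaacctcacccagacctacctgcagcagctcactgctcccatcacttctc
Krt28, chr11:99374854-99375153, minus strand: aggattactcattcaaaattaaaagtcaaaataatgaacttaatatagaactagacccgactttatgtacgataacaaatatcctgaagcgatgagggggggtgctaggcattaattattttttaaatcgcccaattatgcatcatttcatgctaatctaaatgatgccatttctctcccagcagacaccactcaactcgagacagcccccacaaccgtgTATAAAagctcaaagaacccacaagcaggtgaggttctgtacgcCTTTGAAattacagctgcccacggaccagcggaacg
Krtap3-2, chr11:99556804-99557103, minus strand: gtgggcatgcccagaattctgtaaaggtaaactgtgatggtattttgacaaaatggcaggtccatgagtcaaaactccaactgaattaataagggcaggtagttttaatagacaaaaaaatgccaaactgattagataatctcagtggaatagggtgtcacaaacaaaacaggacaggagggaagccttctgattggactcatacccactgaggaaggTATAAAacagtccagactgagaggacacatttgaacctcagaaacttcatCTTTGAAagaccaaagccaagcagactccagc
Krt72, chr15:101786471-101786770, minus strand: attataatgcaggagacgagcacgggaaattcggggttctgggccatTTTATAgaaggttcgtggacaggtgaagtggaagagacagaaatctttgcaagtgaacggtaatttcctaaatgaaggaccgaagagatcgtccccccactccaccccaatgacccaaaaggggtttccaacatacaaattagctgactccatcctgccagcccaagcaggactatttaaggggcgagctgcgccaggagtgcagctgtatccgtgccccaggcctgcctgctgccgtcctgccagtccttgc
Krtap5-2, chr7:142175956-142176255, minus strand: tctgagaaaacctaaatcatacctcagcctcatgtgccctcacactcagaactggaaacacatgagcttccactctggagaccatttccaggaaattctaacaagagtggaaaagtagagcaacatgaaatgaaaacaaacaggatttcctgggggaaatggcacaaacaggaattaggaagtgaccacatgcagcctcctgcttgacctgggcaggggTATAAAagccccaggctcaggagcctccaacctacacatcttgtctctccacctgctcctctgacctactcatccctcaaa
The TATA core began 31 bases before the start in Krt34 and Krtap5-2, 30 before it in Krt28 and 32 before it in Krtap3-2. In Krt72 the only match lay on the opposite strand, beginning 203 bases before the start. CTTTGAA was found 2 times in Krt34 and once each in Krt28 and Krtap3-2, in both of these after the start. Of the 32 hair shaft, keratin-associated and inner root sheath genes called higher, 25 had a promoter in the table, and 20 of these (80.0%) held TATAAA. Among the 42 hair genes of these lists with a promoter that were tested and not called, 33 (78.6%) held it, and among all 10415 tested genes with a promoter 10.5%. CTTTGAA was in 9 of the 25 (36.0%), in 7 of the 42 (16.7%) and in 4.46% of all tested. Over all 32851 promoters of the same length in the table the shares were 13.6% and 5.14%. A match is a description of the sequence, and the TATA core was about as frequent in called as in uncalled hair genes.

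Few regulators of the follicle were called. Over all genes tested 9.64% were called, and a list of about 10 members with 1 call is near that share. Fgf5, the growth factor known for ending anagen, was at 4.19, 3.99, 3.53 and 5.49 FPKM at day 10 and at 10.9, 6.73, 13.9 and 8.1 FPKM at day 15. The days did not overlap (1.01 ± 0.20, adjusted p = 0.0053). Dkk2, a secreted modulator of Wnt signalling that was named after its values were seen because its adjusted p was among the smallest, went from 3.23, 5.13, 2.69 and 5.19 FPKM to 0.587, 0.8, 0.838 and 0.969 FPKM (-1.46 ± 0.19, adjusted p = 0.0014). Ccnd1, the G1 cyclin and the only one of 10 Wnt targets called, went from a mean of 64.8 ± 3.55 to 39.1 ± 4.65 FPKM (SD, n = 4; -0.72 ± 0.11, adjusted p = 0.0021).

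Of 12 dermal papilla genes 3 fell and none rose (median -0.35). Vcan, the proteoglycan versican of the anagen papilla, went from 12.7, 18.3, 17.9 and 17.3 FPKM to 5.6, 10.3, 5.42 and 8.95 FPKM (-1.06 ± 0.24, adjusted p = 0.011). The other 2 were the transcription factor genes Alx4 (-0.60) and Trps1 (-0.36). Alx4 was called in neither of the fits without mice 2 and 3 of day 10 (adjusted p = 0.068 each), nor without mouse 4 of day 10 (0.1) or mice 1, 2 and 3 of day 15 (0.09, 0.056 and 0.052). Trps1 was lost without each of 7 mice, all but mouse 3 of day 15 (0.058 to 0.14), and the list then held 1 called member without mice 2, 3 or 4 of day 10 or mice 1 or 2 of day 15. It held 0 without both mice 1 and 2 of day 15 (median -0.27), as did the hair matrix and bulge lists. Msx1, the 1 called of 13 hair matrix regulators, fell by 0.76 on the log2 scale. Its call was lost without mouse 1 or 2 of day 10 or mouse 1 or 2 of day 15 (0.055 to 0.064), and 2 members were called lower without mouse 3 of day 15. Foxn1, the transcription factor that drives hair keratin genes, was at 31.1 and 48.2 mean FPKM and missed the threshold (0.60, adjusted p = 0.058). Lgr6, a stem cell receptor, was the 1 called of 10 bulge genes (-0.46 ± 0.09, adjusted p = 0.0068), and 2 were called without mice 2, 3 or 4 of day 15.

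In the BMP list 1 of 10 rose and 1 fell, and 1 rose and 0 fell without mice 1 and 2 of day 15. Grem1, a secreted BMP antagonist, went from 4.44, 8.89, 5.3 and 7.3 FPKM to 2.32, 2.21, 1.19 and 4.65 FPKM, with mouse 4 of day 15 above mouse 1 of day 10 (-1.10 ± 0.25, adjusted p = 0.01). Grem1 was not called in the fit of only the extract-treated libraries (adjusted p = 0.08). Bmp2, a ligand of the pathway, rose by 0.57, and was not called without any 1 of the 4 mice of day 10 or mice 1 and 3 of day 15 (adjusted p = 0.058 to 0.11). Tgfb2, a ligand known for promoting catagen, fell by 0.40, lost without mice 1, 2 or 3 of day 10 or 1, 3 or 4 of day 15 (0.053 to 0.14). Igfbp2, a binding protein of insulin-like growth factors, was at 18.1 to 19.3 FPKM at day 10 and at 5.6 to 9.27 FPKM at day 15 (-1.32 ± 0.34, adjusted p = 0.021). That call was lost without mouse 2 of day 10 (0.06) or mouse 1 of day 15 (0.066), and the list held 0 calls without both mice 1 and 2 of day 15. None of 8 Hedgehog genes was called by limma (2 had an unadjusted p under 0.05), and Hhip, the Hedgehog-interacting protein, was at -0.44 (adjusted p = 0.05). Without mouse 3 of day 15, 2 were called lower, Hhip among them (adjusted p = 0.029). Hhip was also called in the fit of only the extract-treated libraries (adjusted p = 0.042).

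Krt16, the partner of Krt6b, was at 10.8, 69.2, 88.8 and 84.4 FPKM at day 10 and at 11.7, 8.6, 14.1 and 14.7 FPKM at day 15. As for Krt6b, mouse 1 of day 10 lay with the mice of day 15 and the other 3 well above (-1.95 ± 0.40, adjusted p = 0.0072). Mean Krt16 at days 10 and 15 was 10.7 and 12.8 FPKM in control and 8.81 and 9.6 FPKM in model skin. Mean Krt6b was 0.981 and 0.472 FPKM in control and 1.46 and 1.23 FPKM in model skin. Those 3 mice of day 10 thus stood above all other groups for both genes. The limma difference tests did not call Krt16 (adjusted p = 0.14 against model and 0.1 against control). Krt16 was not called in the fit of only the extract-treated libraries (adjusted p = 0.12). Krt79, a keratin of the follicle opening, went from a mean of 141 to 66.9 FPKM (-1.14 ± 0.27, adjusted p = 0.013). In all 3 of 6 companion and stress keratins fell and 1, Krt75, rose, but 1 fell and 0 rose without mice 1 and 2 of day 15. Krt6a (-0.41) and Krt17 (0.23) were not called, although Krt6a was without mouse 1 of day 10 (adjusted p = 0.044).

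In the basal epidermis list 7 of 10 members fell and none rose (median -0.58). Itga6, the hemidesmosomal integrin alpha chain, was at 24.5, 31.3, 29.1 and 33.4 FPKM at day 10 and at 16.2, 17.2, 18.6 and 20 FPKM at day 15 (-0.68 ± 0.11, adjusted p = 0.0021). Col17a1, a transmembrane collagen of the same junction, was at -0.81 ± 0.16 (adjusted p = 0.0066) and Itgb4, the beta chain, at -0.58 ± 0.12 (adjusted p = 0.0074). Krt14 fell by 0.66 (adjusted p = 0.015), whereas its partner Krt5 was not called (-0.19, adjusted p = 0.36). The count was between 5 and 7 when single mice were left out, 3 in the fit of only the extract-treated libraries and 1 without mice 1 and 2 of day 15, where the median stayed at -0.58.

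Of 25 epidermal differentiation genes 7 fell and 3 rose (median -0.50). Flg, filaggrin, which bundles keratin in the granular layer, was at 5.94, 10.6, 6.28 and 6.87 FPKM at day 10 and at 1.5, 3.6, 0.775 and 4.36 FPKM at day 15 (-1.35 ± 0.38, adjusted p = 0.031). Aloxe3, a lipoxygenase of the lipid barrier, went from 3.98 to 1.89 mean FPKM (-0.80 ± 0.18, adjusted p = 0.0089). Tgm3, a transglutaminase that also crosslinks hair proteins, rose from 38.9 to 82.3 mean FPKM (1.04 ± 0.24, adjusted p = 0.012), as did Sprr2h. Krt1 and Krt10, the suprabasal keratin pair, were at -1.23 and -0.95 and were not called (adjusted p = 0.097 and 0.071). Krt10 was called without mouse 4 of day 15 (0.047). The number that fell was 2 without mouse 2 of day 10 and 4 without mouse 4 of day 10 or mouse 1 of day 15. Without both mice 1 and 2 of day 15, 0 fell and 1 rose (median -0.60). The call of Flg was lost without mice 1, 2 or 4 of day 10 or mice 1 or 3 of day 15 (0.05 to 0.1).

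The late cornified envelope genes, a list added after values were seen, fell in 11 of 17 members with none higher (median -1.40). Their summed FPKM was 293, 389, 380 and 315 at day 10 and 149, 184, 71.5 and 229 at day 15, lowest in mouse 3. Without that mouse 1 member was called lower, with a median of -0.95. The number was 0 without mouse 2 of day 10 or mouse 1 of day 15, and 3, 2 and 1 without mice 1, 3 and 4 of day 10. It was also 0 without both mice 1 and 2 of day 15, where the median was -1.59. The model and control arms had medians of -1.54 and -1.08 for the same list.

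The sebaceous gland list fell in 7 of 13 members with none higher (median -0.78). Awat2, a wax ester synthase, was at 5.8, 5.06, 5.04 and 4.89 FPKM at day 10 and at 2.38, 1.46, 1.67 and 2.12 FPKM at day 15 (-1.10 ± 0.18, adjusted p = 0.0021). Awat1, its relative, went from 50.7 to 18.8 mean FPKM (-1.53 ± 0.33, adjusted p = 0.0081) and Elovl3, a fatty acid elongase of sebocytes, from 113 to 65.8 (-0.78 ± 0.17, adjusted p = 0.008). The count was 3 without mouse 2 of day 10 and 3 without both mice 1 and 2 of day 15 (median -0.89). Model skin also fell here (6 of 13, median -0.74).

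Of 21 cholesterol synthesis genes 5 fell, against 7.53% of all genes tested, with a list median of -0.08, close to that of all genes. They included Hsd17b7 (-0.74), Msmo1 (-0.60) and Cyp51 (-0.52), enzymes of the late steps. Without mouse 2 of day 10 only 1 was called, and without mouse 1 of day 10 or mice 1 or 2 of day 15 it was 3. It was 0 without both mice 1 and 2 of day 15. Cyp51 and Msmo1 were lost without mouse 2 of day 10 (adjusted p = 0.05 and 0.055). Of 12 fatty acid synthesis genes the elongases Elovl5 (-0.79 ± 0.15, adjusted p = 0.0044) and Elovl6 (-1.02 ± 0.26, adjusted p = 0.018) fell. Elovl6 was lost without mice 1 or 2 of day 10 or mouse 1 of day 15 (0.053 to 0.076), which left 1 call, as did leaving out both mice 1 and 2 of day 15. None of 17 adipocyte genes was called by limma, and none had an unadjusted p under 0.05.

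Of 20 dermal extracellular matrix genes 7 fell and none rose (median -0.57). Aspn, asporin, a small leucine-rich proteoglycan, was at 151, 119, 98.9 and 99.4 FPKM at day 10 and at 44.5, 30.8, 48.2 and 53 FPKM at day 15 (-1.39 ± 0.25, adjusted p = 0.0039). Postn, periostin, went from 241, 257, 208 and 332 FPKM to 93.4, 178, 113 and 149 FPKM (-0.98 ± 0.23, adjusted p = 0.012). Dcn, decorin, went from a mean of 1240 to 842 FPKM (-0.60, adjusted p = 0.034) and Ogn, osteoglycin, from 67 to 44.1 (-0.63, adjusted p = 0.028). The count was 1 without mouse 1 of day 15, 2 without mouse 2 or 4 of day 10, 3 without mouse 1 of day 10, and 4 without mouse 3 of day 15, the mouse low in matrix genes, with a median of -0.21. Without mice 1 and 2 of day 15 it was 5, with a median of -1.0. Dcn was lost without mice 1, 2 or 4 of day 10 or 1 or 3 of day 15 (0.062 to 0.095), Ogn without mice 1, 2 or 4 of day 10 or 1 or 2 of day 15 (0.065 to 0.1), and Postn without mouse 1 of day 15 (0.054).

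Of 10 fibroblast lineage genes 2 fell, against 7.53% of all genes tested. Prrx1, a mesenchymal homeobox gene, was at 15.7, 21.3, 19.2 and 19.7 FPKM at day 10 and at 8.66, 12.2, 6.61 and 11.3 FPKM at day 15 (-0.93 ± 0.15, adjusted p = 0.0021). Pdgfrb, a growth factor receptor of fibroblasts and pericytes, was the other (-0.68), lost without mice 2 or 4 of day 10 or mouse 1 of day 15 (0.087, 0.089 and 0.05). In these fits the list held 1 call, and 4 without mouse 2 of day 15. Without both mice 1 and 2 of day 15 it held 3 calls, and the smooth muscle list 0. The smooth muscle genes Cnn1 (-0.96) and Tagln (-0.84) fell among 9. Without mouse 2 of day 10 neither was called (0.051 and 0.086), and Tagln was lost without mice 1 or 3 of day 10 or 1 or 3 of day 15 (0.053 to 0.085). Of the markers of other cells, none of 23 skeletal muscle, 13 endothelial, 6 T cell or 7 Schwann cell genes was called by limma, with 0, 1, 0 and 2 members at an unadjusted p under 0.05. Without mouse 3 of day 15, 3 endothelial genes were called higher and 1 skeletal muscle and 1 Schwann cell gene lower.

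Cytokine levels varied widely between the mice of day 15. The summed FPKM of 15 cytokine and chemokine genes was 118, 192, 234 and 105 at day 10 and 391, 885, 43.2 and 743 at day 15. Mice 1, 2 and 4 of day 15 were above all of day 10 and mouse 3 below them. Il6 followed that order, with 1.31, 1.32, 1.45 and 1.75 FPKM at day 10 and 7.21, 37.8, 0.568 and 32.2 FPKM at day 15 (2.21 ± 0.87, adjusted p = 0.11). Ccl4, a macrophage chemoattractant, was at 2.16 ± 0.88 (adjusted p = 0.12). None of the 14 tested was called by limma (median 1.15, 2 at an unadjusted p under 0.05), and 6 were called higher without mouse 3 of day 15 (median 2.05), Il6 and Ccl4 among them (adjusted p = 0.0095 and 0.018).

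No macrophage gene of 14 and no neutrophil gene of 8 was called by limma (2 and 0 at an unadjusted p under 0.05). Mrc1, the mannose receptor of resident macrophages, was at 85.6 and 59.5 mean FPKM (-0.58, adjusted p = 0.061) and was called without mouse 2 or 4 of day 15 (0.031 each). None of 17 interferon response genes was called by limma (2 at an unadjusted p under 0.05). Without mouse 3 of day 15, 2 macrophage, 1 interferon response and 4 of 7 antigen presentation genes were called higher. Of 11 antimicrobial genes 3 fell, S100a7l2, Defb8 and Wfdc12, a whey acidic protein of the skin (-1.40 ± 0.40, adjusted p = 0.033). Wfdc12 was lost without mice 1, 2 or 4 of day 10 or 1 or 3 of day 15 (0.059 to 0.093), and the list held 1 call without mice 1, 2 or 4 of day 10 or mouse 3 of day 15. Mrgprb1, a receptor of mast cells, was the 1 called of 8 mast cell genes (-0.62), lost without mice 2, 3 or 4 of day 10 or 1 or 2 of day 15 (0.056 to 0.089). Of all genes tested 7.53% fell. Without both mice 1 and 2 of day 15 the antimicrobial list held 2 calls and the mast cell list 0.

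Immediate early genes, which respond within minutes to growth factors, stress and tissue handling, were higher at day 15 in 6 of 19 (median 0.90, none lower). Egr1 was at 24.1, 27, 37.1 and 36.9 FPKM at day 10 and at 75.2, 138, 31 and 121 FPKM at day 15 (1.34 ± 0.34, adjusted p = 0.018). Junb went from a mean of 60.8 to 125 FPKM (0.99), Zfp36, which destabilizes cytokine mRNA, from 36.8 to 95.9 (1.25), Jun from 29.4 to 49.8 (0.71) and Ier2 from 28 to 49.1 (0.74). Fos was at 43.7, 150, 9.73 and 92.8 FPKM at day 15 against 7.22 to 19.5 at day 10 and missed the threshold (1.92 ± 0.62, adjusted p = 0.056). As for the cytokines, mice 2 and 4 of day 15 were highest and mouse 3 lowest, and the summed FPKM of the list was 735, 1509, 509 and 1203 at day 15 against 436 to 534 at day 10. Without mouse 3, 12 of the 19 were called, Fos included (0.0028). Without mice 1 and 2, which leaves mice 3 and 4 of day 15, none was (median 0.58). The call of Egr1 was lost without mice 1 or 2 of day 10 or mouse 2 of day 15 (0.053 to 0.06). In the fit of only the extract-treated libraries 2 of the 19 were called. Egr1, Zfp36, Jun and Ier2 were lost there (adjusted p = 0.13, 0.096, 0.071 and 0.093).

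**Figure D3:**
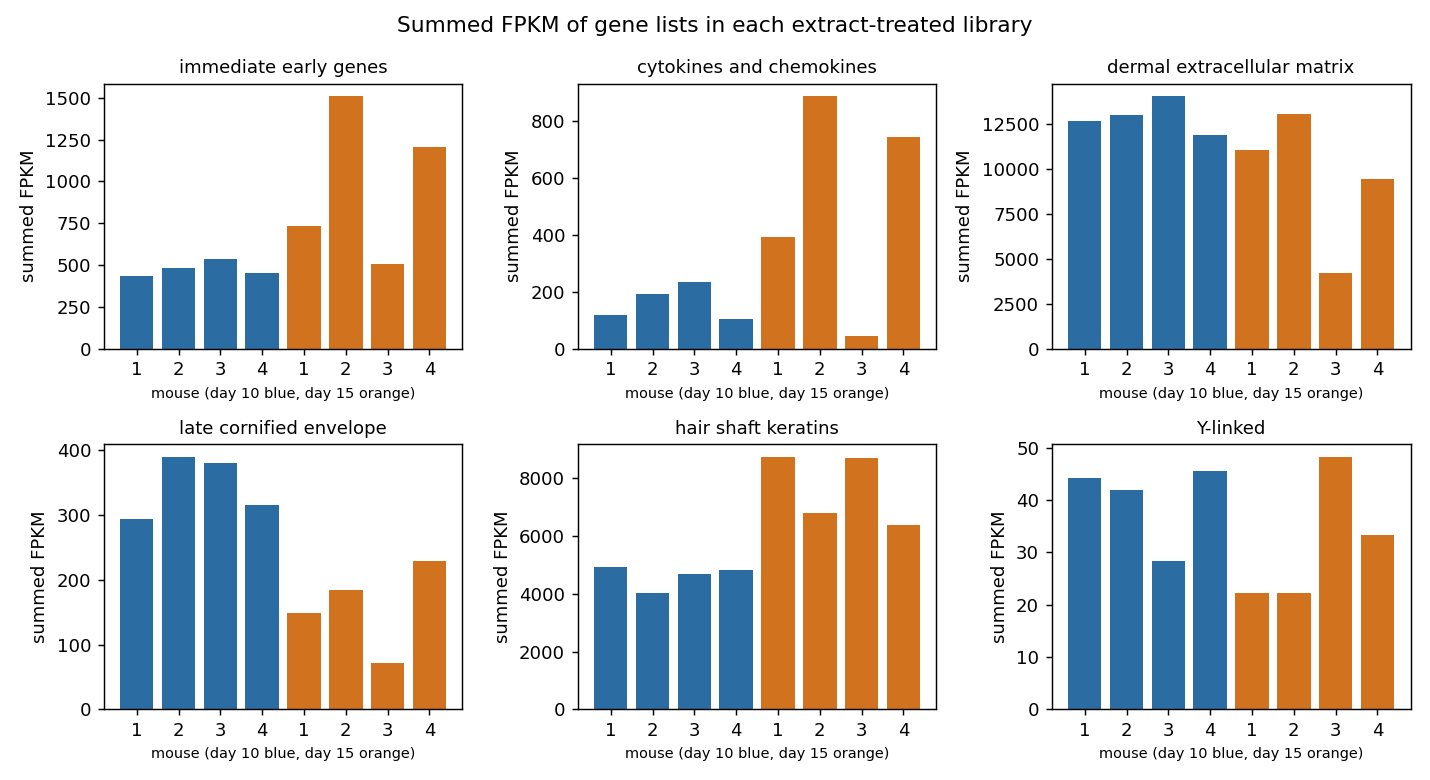
Summed FPKM of 6 gene lists (vertical axis) in each extract-treated library, mice 1 to 4 of day 10 in blue and of day 15 in orange. Mouse 3 of day 15 is lowest for cytokines (43.2) and dermal matrix (4223), while hair shaft keratins are between 6374 and 8740 in all 4 mice of day 15, and the Y-linked sum is 22.3 in mice 1 and 2.

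Genes of the circadian clock, whose phase depends on the hour of sampling, included 5 falls and 1 rise among 17 (median -0.32). Clock, the core activator, was at 7.23, 6.99, 5.78 and 7.7 FPKM at day 10 and at 3.95, 4.33, 5.22 and 5.28 FPKM at day 15 (-0.48 ± 0.09, adjusted p = 0.004). Tef (-0.58) and Nr1d2 (-0.53), an output and a repressor of the clock, also fell, and Nfil3, a repressor of the same outputs, rose (0.81). The number that fell was 2 or 3 without mice 1, 2 or 4 of day 10 or 1 or 2 of day 15, and without both mice 1 and 2 of day 15 0 fell and 0 rose. Nr1d2 was lost without the same mice of day 10 and mouse 1 of day 15 (0.051 to 0.082), and Nfil3 without mouse 2 of day 10 or mice 1 or 2 of day 15 (0.057 to 0.066).

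Over all genes tested 2.11% rose and 7.53% fell. In the list of the endoplasmic reticulum stress response 3 of 12 rose and 1 fell. Hspa5, its main chaperone, went from 217, 245, 252 and 253 FPKM to 328, 300, 326 and 357 FPKM (0.44 ± 0.10, adjusted p = 0.012). Chac1 (0.73) rose and Ddit3 (-0.36) fell, both effectors of the response, and both calls were lost without mice 1 or 2 of day 10 or mice 1 or 4 of day 15 (0.062 to 0.12), Chac1 also without mouse 3 (0.074) and Ddit3 without mouse 4 (0.062) of day 10. The number of rises was 1 without mice 1, 2 or 3 of day 10 or mice 1 or 4 of day 15, and 2 genes fell without mouse 3 of day 15. Without both mice 1 and 2 of day 15, 1 rose and 0 fell. Hspa8, a constitutive chaperone, rose by 0.31, lost without mouse 1 of day 10 (0.055) or mouse 1 of day 15 (0.05), and was the 1 called of 10 heat shock genes (2 without mouse 4 of day 15). Hmox1, haem oxygenase, was the 1 called of 13 NRF2 targets, near the 7.53% of all genes tested that fell. It was at 93.8, 253, 260 and 319 FPKM and at 78.7, 153, 56 and 126 FPKM (-1.12, adjusted p = 0.046), with mouse 1 of day 10 low as for Krt6b and Krt16. It was lost without mice 2, 3 or 4 of day 10 or 1 or 3 of day 15 (0.092 to 0.15), and 2 targets were lower without mouse 1 of day 10. Cyp1a1, a target of the aryl hydrocarbon receptor, fell by 0.96 (adjusted p = 0.03), lost without mice 2 or 4 of day 10 or 2 or 3 of day 15 (0.054 to 0.086). The heat shock, NRF2 and aryl hydrocarbon receptor lists held 0 calls without both mice 1 and 2 of day 15.

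In oxidative phosphorylation 4 of 77 genes rose, Cox5a among them (0.24), and of 79 cytosolic ribosomal proteins Rpl27 alone (0.31). Of all genes tested 2.11% rose. Cox5a held in each fit without 1 mouse but not in the fit of only the extract-treated libraries (adjusted p = 0.11). The list count was 1 without mice 2 or 4 of day 10 or mouse 1 of day 15, 2 without mouse 2 and 7 without mouse 4 of day 15. Rpl27 was lost without mice 1, 2 or 4 of day 10 or 1 or 2 of day 15 (0.059 to 0.13), and 2, 2 and 7 ribosomal genes were called without mouse 3 of day 10 and mice 4 and 3 of day 15. The ribosomal median was 0.12 and turned to -0.05 under quantile normalization. Both lists held 0 calls without mice 1 and 2 of day 15.

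Srd5a1, the 5-alpha-reductase that makes DHT, was at 9.26 and 10.0 mean FPKM (0.09, adjusted p = 0.63). Hsd17b12, a ketoacyl reductase, was the 1 called of 11 steroid enzymes (-0.52 ± 0.11, adjusted p = 0.0068), near the 7.53% of all genes tested that fell. Without mouse 4 of day 15, 3 steroid enzymes were called lower. Of 11 steroid receptor targets Cdkn1a, a cell cycle inhibitor, rose (0.46), and Tsc22d3 (-0.65) and Mt1 (-0.72), both induced by glucocorticoids, fell. All 3 calls were lost without mouse 2 of day 10 or mouse 1 of day 15 (0.059 to 0.16), Tsc22d3 also without mouse 1 of day 10 (0.052) and Mt1 without mice 3 and 4 of day 10 and 3 and 4 of day 15 (0.05 to 0.11). Neither of these lists held a call without both mice 1 and 2 of day 15. Fkbp5, a chaperone gene induced by androgens and glucocorticoids, was not called (-0.13, adjusted p = 0.79).

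The remaining panel genes of the hair cycle were not called. Igf1, a papilla growth factor, was at 12.8 and 8.95 mean FPKM (-0.48, adjusted p = 0.089), Lgr5, a bulge stem cell receptor, at 10.7 and 7.2 (-0.52, adjusted p = 0.065) and Wnt10b, a ligand of anagen onset, at 6.11 and 4.26 (-0.48, adjusted p = 0.14). Without mouse 3 of day 15 Wnt10b and Lgr5 were called (0.016 and 0.034), and Lgr5 also without mouse 4 (0.042). The fit of only the extract-treated libraries called Igf1 (0.026). Array weights called Igf1, Lgr5 and Wnt10b (0.025, 0.035 and 0.0082), and a common total per library called Igf1 and Lgr5 (0.045 and 0.036). Lef1 (0.21), Shh (0.05), Ctnnb1 (-0.09), Vegfa (0.18), Tgfb1 (0.10) and Mki67 (-0.19) had adjusted p of 0.44 or more, and Dkk1 did not pass the filter on low values.

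The day effect was then set beside that of model and control skin, to ask whether the change between the days differed with the extract. Model skin had 1104 genes called (8.47%), 1.62% of all genes tested being higher and 6.85% lower. Control skin had 627 (4.81%), 1.48% higher and 3.33% lower. Of the 1257 genes called in extract-treated skin, 239 were called in the same direction in model skin (19.0% of the extract-treated calls and 21.6% of the model calls) and 1 in the opposite direction. With control skin 123 were shared (9.79% and 19.6%) and 5 were opposite, and 74 were called in all 3 arms. Ccnd1 was one of the shared falls, at -0.72, -0.69 and -0.51 in the extract, model and control arms.

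The hair lists are given side by side in the 3 arms. Hair shaft keratins had medians of 0.72, 0.53 and -0.14 in the extract, model and control arms with 6, 4 and 0 of 16 called higher, keratin-associated proteins 0.61, 0.64 and 0.38 with 19, 8 and 12 of 55, and the inner root sheath 0.68, 0.33 and 0.27 with 7, 1 and 0 of 10. Other lists were called in the other arms and not in the extract arm. Of 31 cell cycle genes 0 were called in extract-treated skin by limma (median -0.08, 1 at an unadjusted p under 0.05, and 4 lower without mouse 3 of day 15), and 20 fell in model (median -0.40) and 11 in control skin (-0.41). Of 13 melanocyte genes the numbers were 0, 10 and 6 (medians -0.14, -0.65 and -0.62), of 8 Hedgehog genes 0, 6 and 3, and of 17 interferon response genes 0, 9 and 3 rose (medians 0.00, 1.30 and 1.39). Calls in the other arms depended on the fit as well. Over all genes, model calls numbered 8 in the fit of only the model groups and 146 without mouse 3 of model day 15. Control calls numbered 1938 in the fit of only the control groups and 99 without mouse 4 of control day 15. List counts of these arms in such fits are not given here. In the test of the difference between day effects no gene of these hair, cell cycle, melanocyte, Hedgehog or interferon lists was called, against model or control. At an unadjusted p under 0.05 the difference from model was passed by 17 of 31 cell cycle, 9 of 13 melanocyte, 5 of 8 Hedgehog and 9 of 17 interferon genes, and by 1884 of all 13039. For the difference from control the numbers were 13, 6, 2 and 7, and 1957 of all. These lists did not stand alone, as 47 of 79 cytosolic ribosomal proteins passed against model and 25 against control.

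**Figure D4:**
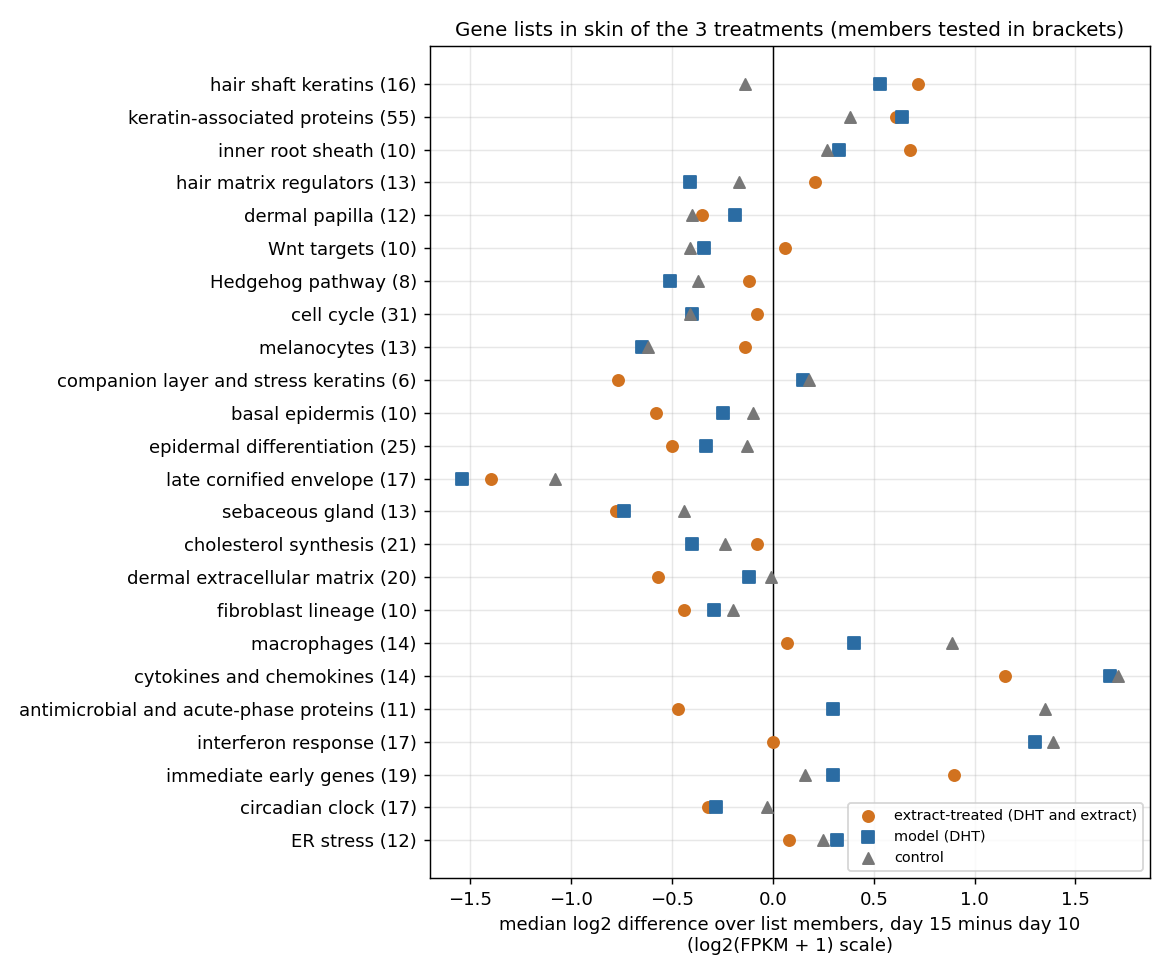
Median log2 difference, day 15 minus day 10 (horizontal axis, log2(FPKM + 1) scale), of 24 gene lists in extract-treated (orange circles), model (blue squares) and control skin (grey triangles), with the number of members tested in brackets. The cell cycle median is -0.08 in extract-treated skin and -0.40 and -0.41 in the other arms, and late cornified envelope genes lie at -1.40, -1.54 and -1.08 in the extract, model and control arms.

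The difference test called 13 genes (0.0997%) against model skin and 43 (0.33%) against control skin. Relative to model 0.0614% of genes were higher and 0.0383% lower, and relative to control 0.0844% and 0.245%. Of these genes 3 and 25 were also called in extract-treated skin itself. Among the genes in both sets were 6 known from kidney, Kap, S100g, Umod, Slc34a1, Slc27a2 and Miox, chosen here after their values were seen. They were at or below 0.13 FPKM in all 8 extract-treated libraries and in all day 15 libraries, but at 0.815 FPKM or more in every control and model library of day 10, and so were called for their levels in the other arms. A kidney list of 17 genes summed to 20.1 to 33.3 FPKM in those 8 libraries and to 0.296 to 0.819 FPKM in the extract-treated ones. In the day 10 libraries of the other arms, kidney RNA and group cannot be told apart. Those libraries are the day 10 side of both arms, so this limit holds for their day effects and for every difference test. Whether other genes were affected was not tested.

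The following 6 genes also differed from model skin. Grem1 fell in extract-treated skin while model skin went from between 5.72 and 7.84 FPKM to between 9.33 and 18.3 FPKM (difference of log2 differences -1.87 ± 0.35, adjusted p = 0.036). Control skin lay at 2.48 to 5.02 FPKM over both days. Sectm1a, a secreted T cell costimulator, was at 7.78 and 2.89 mean FPKM in extract-treated skin (-1.19, adjusted p = 0.0035) and differed from model by -1.54 ± 0.29 (adjusted p = 0.036). Mcfd2, a cargo receptor subunit of the secretory pathway, was at -0.34 and differed by -0.54. Rin2 (-0.59), an endocytic regulator, and Dnajb9 (-0.58), a chaperone of the endoplasmic reticulum, were lower relative to model, and Fdps (0.59), farnesyl diphosphate synthase of the sterol pathway, was higher, with day effects of 0.23 in extract-treated and -0.36 in model skin. With the 16 libraries left out in turn, Grem1 was called in 7, Sectm1a in 5, Mcfd2 in 11, Rin2 in 12 and Dnajb9 and Fdps in 6 each, with the highest adjusted p 0.12, 0.093, 0.063, 0.063, 0.14 and 0.12. That was without mouse 2 of extract-treated day 10, or for Mcfd2 without mouse 2 of model day 10. None of the 6 was called in the fit of only the extract-treated and model groups (adjusted p = 0.1 to 0.21) or without mice 1 and 2 of extract-treated day 15 (0.12 to 0.17).

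Of the genes called in the difference from control skin, S100a7l2 and Defb8 had the most negative values. S100a7l2 was at 0.546 to 5.48 FPKM at day 10 and at 8.06 to 19.2 FPKM at day 15 in control mice, and fell from 193 to 307 FPKM to 4.41 to 146 FPKM in extract-treated mice (difference -5.12 ± 0.99, adjusted p = 0.031). Model mice were at 151 to 372 and 107 to 489 FPKM, and the difference from model was -2.52 and not called (adjusted p = 0.25). Defb8 went the same way, from 9.99 to 19.5 FPKM at day 10 to 53.3 to 146 FPKM at day 15 in control mice, with a difference of -4.36 ± 0.79 (adjusted p = 0.021). Model mice were at 393 to 1430 and 377 to 1270 FPKM of Defb8, and extract-treated mice at 671 to 1140 and 54.9 to 653. Its difference from model was -1.59 and not called (adjusted p = 0.36). For both genes mouse 3 of extract-treated day 15 was lowest and lay below the highest control mouse of that day.

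Sprr2f, a cornified envelope gene at low level, differed by -1.90 ± 0.26 (adjusted p = 0.00063), the serine protease gene Prss23 by -1.39 ± 0.23 (adjusted p = 0.0091), Klf10, a TGF-beta induced factor, by -1.10 ± 0.19 (adjusted p = 0.014), and Sgms1, sphingomyelin synthase, by -0.64. Wdr89, a WD-repeat gene, was higher by 0.95 ± 0.14 (adjusted p = 0.0012). Ifi202b (-2.23), Tsc22d3 (-1.17) and Mcfd2 (-0.52) were also called. Sprr2f, Prss23, Klf10 and Wdr89 were called with each of the 16 libraries left out, Defb8 in 13, Sgms1 in 10, Mcfd2 in 9, S100a7l2 in 7, Tsc22d3 in 4 and Ifi202b in 2. The highest adjusted p for those 6 was 0.053, 0.075, 0.076, 0.08, 0.13 and 0.13. It came without control day 15 mouse 2 for Defb8, control day 15 mouse 1 for Mcfd2 and Ifi202b, control day 10 mouse 3 for Sgms1 and S100a7l2, and extract-treated day 10 mouse 2 for Tsc22d3. Without mice 1 and 2 of extract-treated day 15 Klf10, Sgms1, Mcfd2, Ifi202b and Tsc22d3 were not called (0.08 to 0.16), and Ifi202b was not in the fit of only the groups compared (0.059). Klf10 in extract-treated skin alone (-0.53) was lost without mouse 1 of day 10 or mice 1 or 2 of day 15 (0.057 to 0.072). Fgf5 and Krt6b did not reach the threshold in either difference (Fgf5 0.86 against each arm, adjusted p = 0.17 and 0.16; Krt6b -3.09 and -2.79, adjusted p = 0.098 and 0.093).

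**Figure D5:**
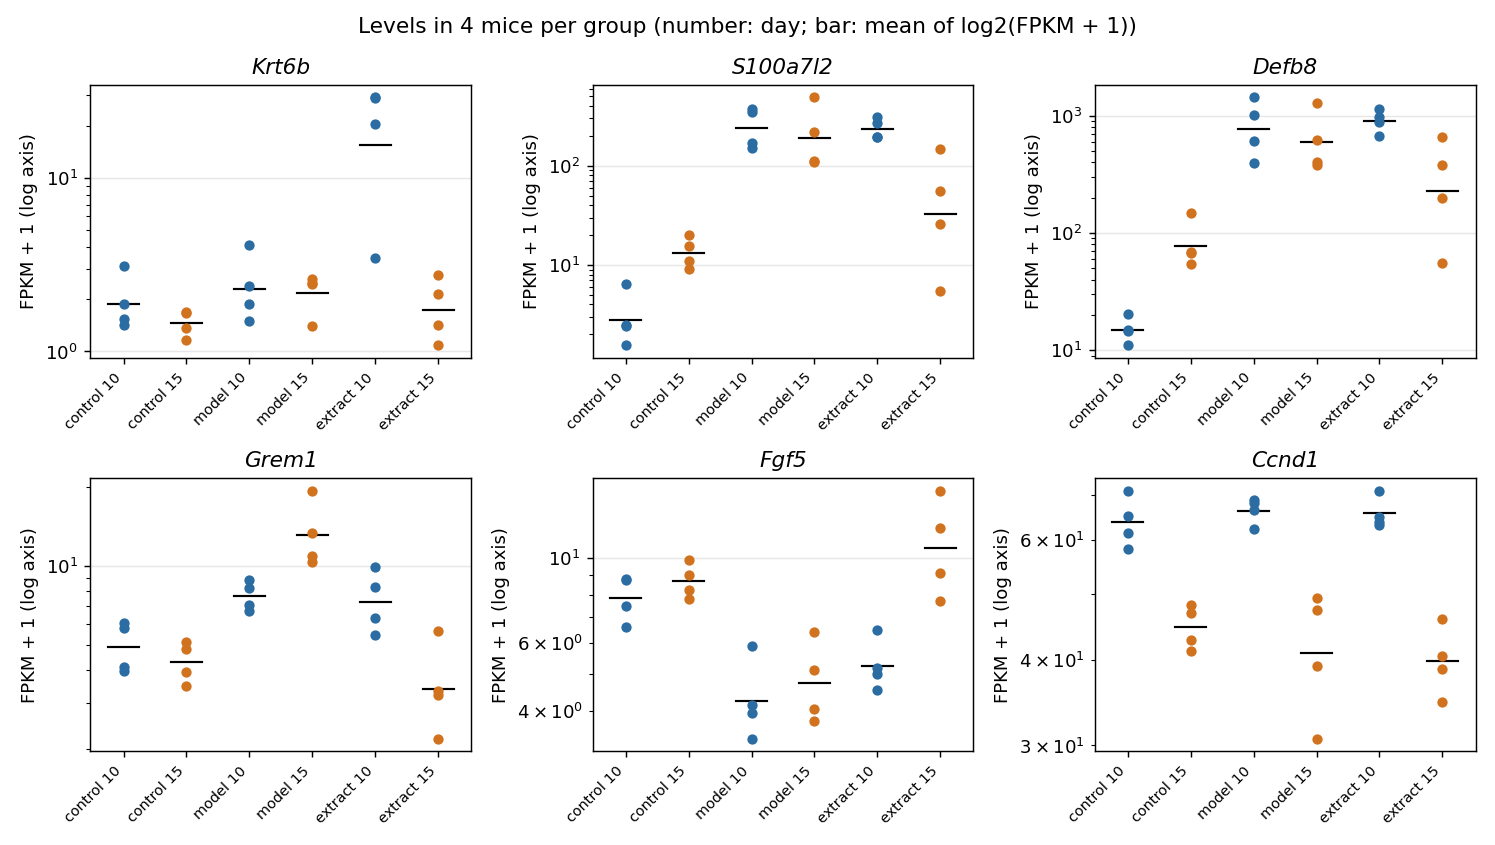
FPKM + 1 (log axis) of 6 genes in all 6 groups, 1 point per mouse, day 10 in blue and day 15 in orange, with bars at the mean of log2(FPKM + 1). S100a7l2 and Defb8 are high in model mice of both days and in extract-treated mice of day 10, Grem1 is highest in model mice of day 15, and Ccnd1 falls in all 3 arms.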

How the data were processed

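The authors' deposited table holds FPKM per gene symbol for 24 skin libraries, per the file headers, and all 24 columns were used. Reads were trimmed with fastp, aligned with HISAT2 to GRCm39 and counted with HTSeq, per the submitters' processing notes; versions are not given in the sources used here. Whole reads were recovered from the FPKM steps for all 18715 genes above 0 (tolerance 0.02 of a read) and served for depth and an alternative test. Values were used as log2(FPKM + 1). Genes that did not reach an FPKM of 1 in 4 libraries (5853) were dropped. A mean per group was fitted over 24 libraries with limma 3.58.1 in R 4.3.3 (trend, robust). Tests were two-sided, and p-values were adjusted by Benjamini-Hochberg over all genes within each of 5 comparisons. A pseudocount of 1 understates changes of low genes. The fit was tested on simulated data. Errors are SE of the fit or SD of 4 mice.

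The members, gene lists and rules were chosen with earlier results of these data known. Named genes were the 12 largest called rises and falls (mean of at least 2 FPKM, no overlap between days), up to 3 members with the smallest p per list, up to 5 genes per direction of the difference tests, and a fixed panel for androgen action and the hair cycle; others were added from the lists or after values were seen. Lists are described by counts and medians, with no set test. Promoters are RefSeq's on GRCm38.p6, which is not the build of the table, and were matched by symbol. Replicate numbers at the 2 days belong to different mice, and the correlations of deviations of same-numbered mice were 0.046, 0.054, -0.468 and 0.029, so they pair nothing. Alternatives were a pseudocount of 0.1, other filters, other scalings, fewer groups, array weights, the replicate block, voom on recovered reads, and leaving out libraries. The last included, chosen after seeing the data, the 4 extract-treated libraries with the lowest Y-linked sums. Some items are not reported here.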

Additional observations from a re-analysis of the deposited data

Results flagged for a closer look

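In the difference between the day effects of extract-treated and model skin, limma called Grem1 (-1.87), Sectm1a (-1.54), Rin2 (-0.59), Dnajb9 (-0.58), Mcfd2 (-0.54) and Fdps (0.59), all as differences of log2 differences. None of these 6 was called in the fit of only the groups compared or without mice 1 and 2 of extract-treated day 15. Against control skin it called S100a7l2 (-5.12), Defb8 (-4.36), Ifi202b (-2.23), Sprr2f (-1.90), Prss23 (-1.39), Tsc22d3 (-1.17), Klf10 (-1.10), Sgms1 (-0.64), Mcfd2 (-0.52) and Wdr89 (0.95).

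For 6 named genes the gap between 1 mouse and the nearest of the other 3 of its group, divided by the range of the group, was above Dixon's critical value. At day 10 Ahsp was high in mouse 4 (6.82 FPKM), Ccl4 was high in mouse 3 (4.31 FPKM), and Nr1d2 (17.0 FPKM) and Rin2 (29.5 FPKM) were low in mouse 3. At day 15 Aadacl4 was high in mouse 4 (20.9 FPKM) and Cyp51 low in mouse 2 (34.8 FPKM). Chance alone flags about 1 in 20 groups by this rule.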

How the results depend on the processing

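The number of genes called depended on the fit. With a mean FPKM of at least 5 it was 826 in extract-treated, 701 in model and 330 in control skin, and 3 and 19 for the differences from model and control. The fit of only the groups compared gave 440, 8 and 1938, and 7 for the difference from model. Array weights gave 2609, 3347 and 3683, and 596 and 510 for the differences. A common total per library gave 1932 in extract-treated and 947 in control skin, median-of-ratios scaling 501 in model and 375 in control skin, no filter 56 and 99 for the differences, and voom on recovered reads 22 for that from control. Leaving out 1 library gave 425 to 2531 calls in extract-treated, 146 to 1522 in model and 99 to 828 in control skin, and 7 to 94 and 11 to 67 for the differences. Without mice 1 and 2 of day 15 the counts were 236, 7 and 17, and without the 4 libraries of lowest Y-linked FPKM 408 and 691 for the differences. With the replicate block, whose numbers do not pair the mice, 1211 genes were called in extract-treated skin and 23 in the difference from control. The planned exclusion for kidney genes removed no extract-treated library.

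Of the 97 called genes followed by name, 22 were called in every setting and 2 changed sign in at least 1. Leaving out the 4 libraries of lowest Y-linked FPKM keeps only mouse 3 of day 15, assumed to vary like the other groups. That mouse stood furthest from the rest of its day and had the lowest cytokine and dermal matrix sums. In this fit log2 differences reversed for Trps1 (0.02), Klf10 (0.06), Il6 (-0.65), Tgfb1 (-0.57), Wnt10b (0.05), Ctnnb1 (0.15), Mki67 (0.30) and Fos (-0.13). Without mice 1 and 2 of day 15 they did for Tgfb1 (-0.23), Ctnnb1 (0.03) and Mki67 (0.02). Fkbp5 was at 0.04 with array weights and 0.09 without mouse 3 of day 15, Vegfa and Tgfb1 at -0.05 and -0.12 without mouse 2 of day 15, and Shh at -0.01 with a common total, -0.02 without mouse 3 of day 10 and -0.00 without mouse 4 of day 15. Leaving out 1 library gave -0.25 to 0.09 for Fkbp5, -0.05 to 0.34 for Vegfa, -0.12 to 0.34 for Tgfb1 and -0.02 to 0.12 for Shh. The cause of these changes was not tested.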
